A study of Rattus norvegicus with 15 samples.

Results

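Ret, the receptor tyrosine kinase of the glial cell line-derived neurotrophic factor (GDNF) family, its co-receptors Gfra1 and Gfra2 and the ligand Gdnf were followed in neurons of 2 regions of the rat midbrain. Every probe set that the platform annotation names for 1 of these 4 genes was taken, which gave 8 of the 8740 probe sets that are no controls, for 4 of 4736 genes: 3 for Ret, 2 each for Gfra1 and Gfra2, and 1 for Gdnf. Each probe set combines several short probes into 1 signal, an intensity in arbitrary units. The samples were neurons cut from rat tissue by laser capture microdissection, from the substantia nigra pars compacta (SNc, 8 arrays) and the ventral tegmental area (VTA, 7 arrays), with total RNA on each array. For both regions, strain, age, sex, treatment, the number of animals and the way neurons were recognised are details not given in the sources used here. Every p-value thus sets a difference against the spread between arrays, which may be technical.

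GDNF family ligands do not bind Ret alone. A ligand first binds a GFR alpha protein held on the cell surface by a lipid anchor, and the pair then brings Ret molecules together, which switches on their kinase and from there the Ras-MAPK and PI3K-Akt pathways. Gfra1 is the preferred co-receptor of GDNF and Gfra2 that of its relative neurturin, and both ligands support survival of midbrain dopamine neurons, the cells lost in Parkinson's disease.

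The start regions of the receptor kinase and of its ligand are shown because they set the gene tested by most probe sets here beside the gene that was not tested. Each is the 250 bases before the start site in the RefSeq table of build GRCr8, 5′ to 3′. Of the 4 genes, 3 had an entry. The Gfra1 window overlaps the annotated span of Gfra1 itself and is not shown, and Gfra2 is named only. The windows were not checked against other genes. The Ret window is at chr4:153040557-153040806 on the minus strand and the Gdnf window at chr2:58621077-58621326 on the plus strand. Capitals mark a TATAAA match, the TATA box.
Ret: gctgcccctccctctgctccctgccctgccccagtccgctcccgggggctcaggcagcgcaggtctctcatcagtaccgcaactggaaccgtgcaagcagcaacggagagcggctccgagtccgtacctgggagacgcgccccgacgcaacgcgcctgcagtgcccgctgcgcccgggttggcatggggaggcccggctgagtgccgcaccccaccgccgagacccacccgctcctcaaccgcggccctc
Gdnf: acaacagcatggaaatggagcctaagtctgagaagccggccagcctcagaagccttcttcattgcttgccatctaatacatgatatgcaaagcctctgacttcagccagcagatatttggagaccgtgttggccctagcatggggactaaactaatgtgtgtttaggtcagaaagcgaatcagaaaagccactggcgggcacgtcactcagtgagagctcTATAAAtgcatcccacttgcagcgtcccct
The Ret window was 72.8% G or C and held 25 CpG dinucleotides, and 94.7% of the 33469 start windows of this length in the table had a lower share of G and C. The Gdnf window was 49.6% G or C with 6 CpG dinucleotides, near the medians of 51.2% and 5 over all windows. Gdnf had 1 TATAAA match beginning 30 bases before the start, and Ret had 0. On either strand 12.9% of all windows hold TATAAA. Neither window held AAAGGTCA, the element bound by Nr4a family receptors, which 1.24% of all windows hold, or GGGCGG, the GC box, which 30.5% hold. None of the 3 motifs overlapped another in these windows.

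The captures had high signals for dopamine neuron genes in both regions. Th, the first enzyme of dopamine synthesis, had a signal of 6615 ± 527 (SD, n = 8) in SNc and 7193 ± 770 (SD, n = 7) in VTA, and Slc6a3, the dopamine transporter, 7245 ± 603 and 5782 ± 979. Ddc, the next enzyme, lay at 2972 ± 138 and 2736 ± 584, and Slc18a2, the vesicular monoamine transporter, at 3118 ± 1060 and 3031 ± 661. None of these 4 passed the test between regions, with limma adjusted p from 0.193 to 0.995. They are 4 of 11 dopamine neuron markers, of which 4 had an unadjusted p under 0.05 and 2 passed, in opposite directions. Gch1, which makes the cofactor of Th, was higher in VTA by a difference of -1.34 (limma adjusted p = 0.00163), and Sncg, a synuclein, higher in SNc by 1.05 (limma adjusted p = 0.00293). Markers of other cells gave signals too, and without detection calls the low ones cannot be told from background. The summed signal of 5 GABA neuron markers ran from 925 to 1859 in SNc and from 560 to 1122 in VTA (exact permutation, two-sided, p = 0.00264, adjusted over 8 marker lists 0.0211). Of these markers, Gad1 (1.45) and Pvalb (1.34) were higher in SNc (limma adjusted p = 0.00154 and 0.0282). Gad2 (0.23) and Slc32a1 (0.07) did not pass (limma adjusted p = 0.723 and 0.901), and Sst was not tested. The summed signal of 8 oligodendrocyte markers ran from 5506 to 9709 in SNc and from 7907 to 11852 in VTA (exact permutation p = 0.0225, adjusted 0.0901), and that of 7 serotonin, noradrenaline and cholinergic markers from 231 to 404 and from 302 to 480 (exact permutation p = 0.0426, adjusted 0.114). The sums of 10 astrocyte, 8 microglia and 7 vessel and blood markers had adjusted p from 0.499 to 0.603. No marker had a mean of 0, and Slc17a7, the only glutamate neuron marker matched, had means of 3.73 and 4.03. The median signal per array was lower in SNc, at 41.4 ± 3.05 against 45.1 ± 1.72 (exact permutation p = 0.0171). The part of these differences in the results that follow was not tested. In captured tissue, fewer cells of a type and less RNA per cell cannot be told apart.

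**Figure D1:**
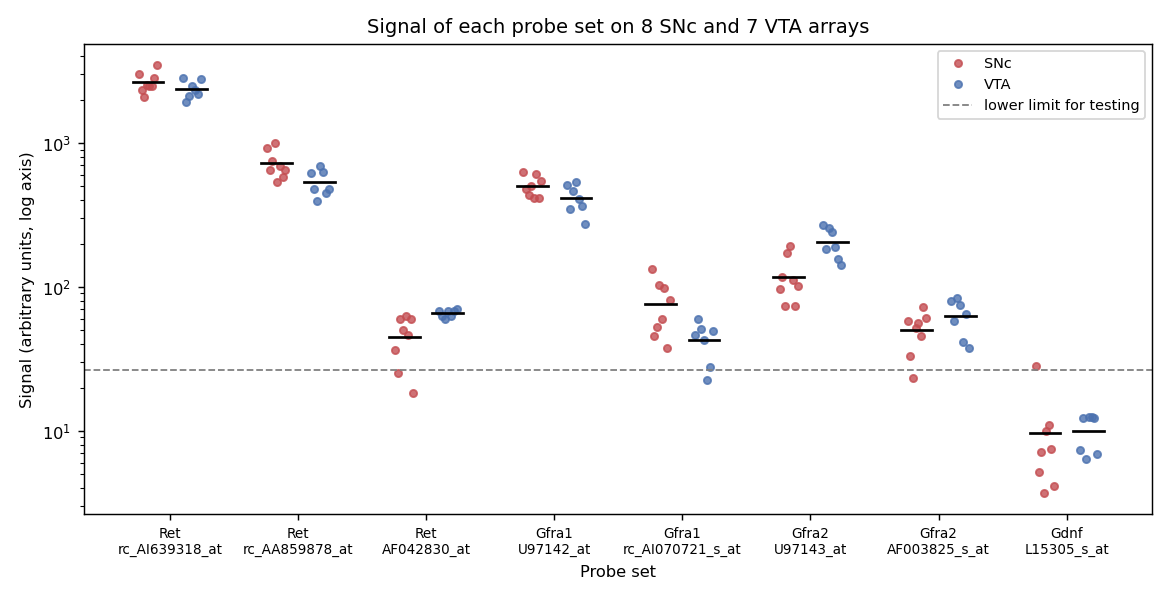
Signal of each of the 8 probe sets (log axis) on 8 SNc arrays (red) and 7 VTA arrays (blue), with a bar at each group's mean and a dashed line at a signal of 26.3, the limit that the mean of a probe set had to pass to be tested. The U97143_at points of Gfra2 lie mostly higher in VTA, and all but 1 of the 15 points of Gdnf lie under the line.

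The data showed Gfra2 and Gfra1 leaning in opposite directions between the regions. No single probe set of the 4 genes passed the test by itself, while the ratio of Gfra1 to Gfra2 within an array was 2.06-fold higher in SNc. These outcomes are not comparable, because single probe sets were adjusted over 5244 and the ratio over 6 pairs. Before adjustment, the exact permutation p was 0.00404 for U97143_at of Gfra2 and 0.00124 for the ratio. How often other gene pairs have such a ratio was not tested. Of the 8 probe sets, 7 were among the 60% of probe sets with the highest mean and were tested, and the Gdnf probe set was not. Differences are SNc minus VTA of log2(signal + 16), from a limma fit over 5244 probe sets called at 0.05 after Benjamini-Hochberg adjustment. Because of the offset of 16, the change of a dim probe set is understated. Of the 7 tested, 0 passed in limma, where 1.98% of all tested probe sets passed, and 0 passed in an exact permutation test adjusted over the same 5244, where 68 passed. At an unadjusted p under 0.05 there were 4 of 7, against 15.4% of all tested. Of these, 2 were higher in SNc and 2 higher in VTA, against 5.87% and 9.57% of all tested. The arrays of both regions overlapped in each of the 7, and failed to overlap in 0.858% of all tested. The median difference over all probe sets tested was -0.0441.

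**Figure D2:**
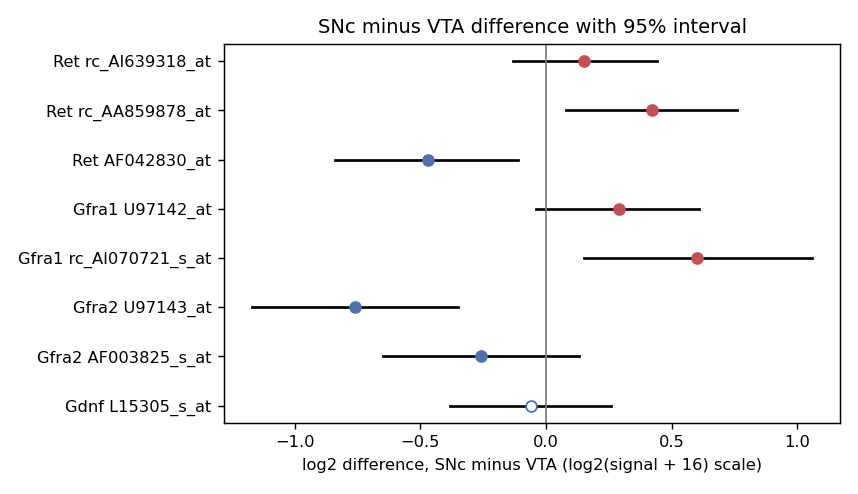
SNc minus VTA difference of each probe set on the log2(signal + 16) scale, with the 95% interval from limma. Filled points are the 7 probe sets tested and the open point is Gdnf, from the fit without a lower limit. Both Gfra1 points lie to the right of 0 and both Gfra2 points to the left, and the Ret points lie on both sides.

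Ret is the shared signalling receptor of the family. By its brightest probe set, rc_AI639318_at, the signal was lowest at 2096, median 2511 and highest at 3456 in SNc, and 1935, 2339 and 2824 in VTA. The ranges overlapped over most of their length, and SNc 8, SNc 1 and SNc 7 were above every VTA array. The means were 2656 ± 428 (SD, n = 8) and 2381 ± 338 (SD, n = 7), a difference of 0.15 (SE 0.14, 95% interval -0.13 to 0.44, limma adjusted p = 0.627).

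The second Ret probe set, rc_AA859878_at, ran from 531 to 1005 in SNc with a median of 674, and from 394 to 687 in VTA with a median of 482. SNc 4 and SNc 1 were the highest of all arrays, and each SNc array was above the VTA median. The difference was 0.42 (SE 0.16, 95% interval 0.08 to 0.76, limma adjusted p = 0.209, exact permutation p = 0.0182). The dimmest, AF042830_at, was spread over 18.3 to 62.9 in SNc with a median of 48.4, and held between 60.2 and 69.9 in VTA with a median of 67.8. All SNc arrays but SNc 5 were below the lowest VTA array, and SNc 8 and SNc 2 were lowest. The means were 45.0 ± 16.7 in SNc and 65.6 ± 3.66 in VTA, a difference of -0.47 (SE 0.17, 95% interval -0.84 to -0.11, limma adjusted p = 0.182, exact permutation p = 0.00637).

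The Ret probe sets did not give 1 direction. Log2 ratios between 2 probe sets of the same gene were compared within each array, a choice made after seeing the values, over 5 pairs in Ret, Gfra1 and Gfra2. The ratio of rc_AA859878_at to AF042830_at was 3.62 ± 0.556 in SNc and 2.73 ± 0.269 in VTA, higher in SNc by 0.90 (SE 0.22, exact permutation p = 0.00326, adjusted 0.0163). That of rc_AI639318_at to AF042830_at was higher in SNc by 0.63 (SE 0.22, exact permutation p = 0.00917, adjusted 0.0229). The brighter pair differed by -0.27 (adjusted p = 0.165). The mean of the 3 probe sets differed by 0.0334 between regions (limma adjusted p = 0.922). Which part of the Ret transcript each probe set reads is not given in the sources used here.

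The 3′ to 5′ signal ratios of control genes varied among the arrays, and RNA integrity itself is not given in the sources used here. The 3′ to 5′ signal ratio of the actin control ran from 6.14 to 15.4, and after removal of region means AF042830_at correlated with it at Pearson r = 0.572 and Spearman rho = 0.557 over 15 arrays (permutation p = 0.0303 and 0.035, adjusted over 24 relations 0.363 and 0.42). Without the 2 arrays farthest from the median of the actin ratio r was 0.237, so the relation rests on those arrays. In the tenth of tested probe sets with signals like AF042830_at, the median difference was -0.104. The part of either in the difference of AF042830_at was not tested.

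Gfra1, the preferred co-receptor of GDNF, had a brightest probe set, U97142_at, with a lowest signal of 413, a median of 491 and a highest of 624 in SNc, and 275, 407 and 532 in VTA. SNc 1, SNc 6 and SNc 8 were above every VTA array, and 4 VTA arrays were below every SNc array. The means were 502 ± 82.8 (SD, n = 8) and 413 ± 92.5 (SD, n = 7), a difference of 0.29 (SE 0.16, 95% interval -0.04 to 0.61, limma adjusted p = 0.388).

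The dimmer Gfra1 probe set, rc_AI070721_s_at, ran from 37.5 to 133 in SNc with a median of 70.2, and from 22.5 upward in VTA with a median of 46.1 (mean 42.8 ± 13.3). SNc 1, SNc 4, SNc 6 and SNc 8 were above every VTA array. The difference was 0.60, or 1.52-fold (SE 0.22, 95% interval 0.15 to 1.06, limma adjusted p = 0.177, exact permutation p = 0.0239). Both probe sets of Gfra1 had a positive difference and neither passed the test. The mean of both differed by 0.444 (limma adjusted p = 0.176).

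Gfra2, the preferred co-receptor of neurturin, came nearest to the threshold. By its brightest probe set, U97143_at, the signal was lowest at 73.5, median 106 and highest at 192 in SNc, and 142, 190 and 270 in VTA. SNc 4 and SNc 5, at 171 and 192, were the only SNc arrays inside the VTA range, and the other 6 lay below every VTA array. The means were 117 ± 43.0 (SD, n = 8) and 205 ± 50.8 (SD, n = 7), a difference of -0.76, or 1.69-fold toward VTA (SE 0.20, 95% interval -1.17 to -0.35, limma adjusted p = 0.0536). The exact permutation test gave p = 0.00404 (adjusted over all probe sets 0.106).

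The call of U97143_at depended on single arrays and on settings. It passed without SNc 4 (limma adjusted p = 0.0386), without SNc 5 (0.0187) and without VTA 8 (0.0394), and over all alternatives the adjusted p ran from 0.0187 to 0.121. SNc 4 and SNc 5 had the highest SNc signals of U97143_at and VTA 8 the lowest VTA signal. Leaving out such an array enlarges the difference in advance, so these passes lend no support. The second probe set, AF003825_s_at, ran from 23.3 to 72.1 in SNc with a median of 53.6 and from 37.7 to 84.0 in VTA with a median of 65.2. It differed by -0.26 (SE 0.19, 95% interval -0.65 to 0.13, limma adjusted p = 0.545). VTA 3, VTA 1 and VTA 4 were above every SNc array, and VTA 5 and VTA 8 lay low in the SNc range. Its signal correlated with the median signal of the array at Pearson r = 0.711 and Spearman rho = 0.627 over 15 arrays with region means removed (permutation p = 0.00362 and 0.015, adjusted over 24 relations 0.0869 and 0.361), and r was 0.777 without the 2 arrays farthest from the median.

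The balance of the co-receptors was compared as the log2 ratio of brightest probe sets within an array, which cancels the scale of the array. A ratio compares the regions, and its own size does not give relative transcript numbers. The Gfra1 to Gfra2 ratio ran from 1.05 to 2.51 in SNc and from 0.80 to 1.15 in VTA. SNc 5 was the only SNc array inside the VTA range, SNc 4 was next at 1.48, and the others lay at 1.88 or above. The means were 2.01 ± 0.504 (SD, n = 8) and 0.96 ± 0.134 (SD, n = 7), higher in SNc by 1.05 (SE 0.19, exact permutation p = 0.00124, two-sided, adjusted over 6 pairs of genes 0.00746). All 8 SNc arrays were above the VTA mean.

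The call did not hang on a single probe set. With the 4 combinations of Gfra1 and Gfra2 probe sets, the ratio was higher in SNc by 0.55 to 1.36 (exact permutation adjusted p from 0.00249 to 0.0115). Over the 22 alternatives of the Gfra1 to Gfra2 ratio, the difference ran from 0.839 to 1.18 and the adjusted p from 0.0035 to 0.0469. It was 1.04 without VTA 5 and VTA 8, which correlated least with the remaining arrays. It was 1.14 without SNc 5, SNc 7 and SNc 8, the SNc arrays nearest to VTA on the first principal component. Leaving out the SNc arrays most like VTA favours a larger difference in advance, so this value lends no support. The same holds for every call named below that was gained without these arrays. A ratio shows unequal change and does not say which of the 2 genes changed.

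**Figure D3:**
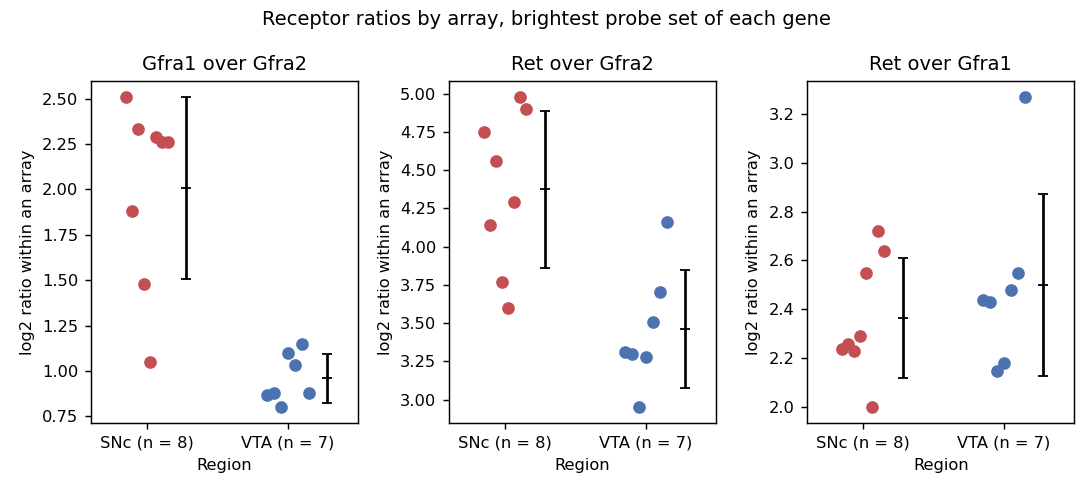
Log2 ratio of 2 genes on each array for 3 pairs of receptors, by the brightest probe set of each gene, with mean and SD beside the points of 8 SNc (red) and 7 VTA arrays (blue). Gfra1 over Gfra2 lies at 1.05 to 2.51 in SNc and 0.80 to 1.15 in VTA, and Ret over Gfra1 overlaps over most of its range.

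Ret against the co-receptors depended on the probe sets used. By the brightest probe sets, the Ret to Gfra2 ratio ran from 3.60 to 4.98 in SNc and from 2.95 to 4.16 in VTA, and 5 SNc arrays were above every VTA array. It was higher in SNc by 0.91 (SE 0.23, exact permutation p = 0.00357, adjusted 0.0107). With AF042830_at as the Ret probe set it was 0.285 and the call was lost (exact permutation adjusted p = 0.297), and in the other 22 alternatives it passed, at 0.683 to 1.06. Over all 6 combinations of Ret and Gfra2 probe sets, run after seeing the values, the difference ran from -0.21 to 1.18 and 3 passed. The brightest Ret probe set over the second Gfra2 probe set, AF003825_s_at, differed by 0.41 and missed (exact permutation adjusted p = 0.0613). The Ret to Gfra1 ratio was 2.37 ± 0.244 in SNc and 2.50 ± 0.374 in VTA, a difference of -0.13 (SE 0.17, exact permutation p = 0.463, adjusted 0.463), and with AF042830_at it was -0.76 (exact permutation adjusted p = 0.0373). VTA 8, where Gfra1 was lowest, had the highest Ret to Gfra1 ratio, 3.27. The ratios share genes and arrays, so the 6 pairs are not independent of each other.

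Within a region the receptors did not vary together by a margin that passed. With region means removed, Gfra1 and Gfra2 correlated at Pearson r = 0.404 and Spearman rho = 0.357 over 15 arrays (permutation p = 0.136 and 0.194, adjusted over 6 pairs 0.819 and 0.829), and r was 0.240 without VTA 4 and VTA 8. Within VTA alone r was 0.918 and rho 0.857 over 7 arrays (exact permutation p = 0.00536 and 0.0238, adjusted over 12 relations 0.0643 and 0.286), and r was 0.925 over the 5 arrays left without VTA 4 and VTA 8. Within SNc r was -0.0362 over 8 arrays (exact permutation p = 0.928). Whether these 2 correlations differ was not tested. Ret and Gfra1 correlated at r = 0.218 and rho = 0.250 (permutation p = 0.433 and 0.368), and at r = 0.0296 without SNc 8 and VTA 1.

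**Figure D4:**
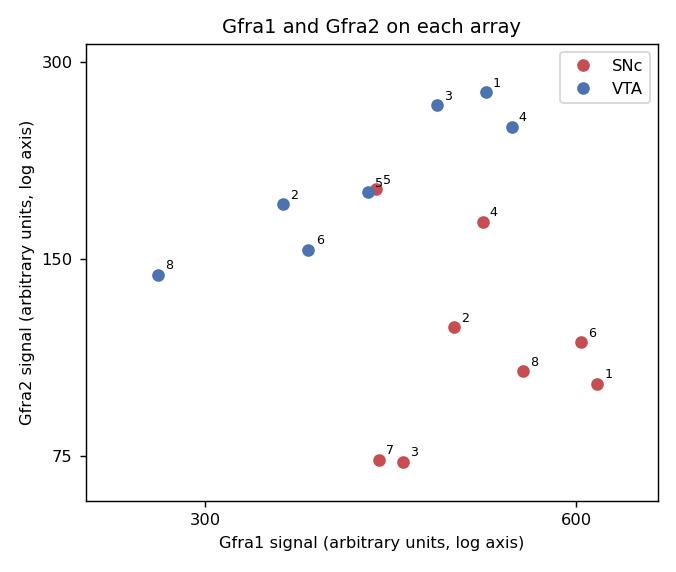
Gfra2 signal (U97143_at) against Gfra1 signal (U97142_at) on each array, both on log axes, with the replicate number beside each point, 8 SNc (red) and 7 VTA (blue). The VTA arrays run along a line (r = 0.918), and 6 SNc arrays lie below all VTA arrays in Gfra2.

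Gdnf, the ligand, had 1 probe set with a mean below the limit for testing. L15305_s_at ran from 3.70 to 28.2 in SNc with a median of 7.27, and from 6.36 to 12.4 in VTA with a median of 12.2. Only SNc 1, at 28.2, was above 26.3, the lower limit for testing. In the fit without that limit the difference was -0.06 (SE 0.15, 95% interval -0.38 to 0.26, limma adjusted p = 0.911). At such signals the offset hides most of any change, so a difference between the regions was not detectable here.

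The other genes of the pathway came from lists whose members are given by their brightest probe set. Over all 3221 genes tested, 32 were higher in SNc and 38 higher in VTA (2.17% in all), 15.5% had an unadjusted p under 0.05, 1792 of the 3221 differences were negative, and the median was -0.0354. The lists' counts stand beside these shares, and nothing particular to a list is read from them. Of 14 other ligands and receptors of the family, 8 had a probe set, 4 were tested and 0 passed in limma, with 1 at an unadjusted p under 0.05 and a median of -0.35. Ncam1, an adhesion molecule that can act as a GDNF receptor without Ret, lay at 180 ± 77.9 in SNc and 237 ± 40.2 in VTA (-0.45, SE 0.22, limma adjusted p = 0.324), and passed at -0.802 without SNc 5, SNc 7 and SNc 8 (limma adjusted p = 0.0227). Itgb1, an integrin subunit, lay at 245 ± 86.1 and 169 ± 41.8 (0.47, SE 0.20, limma adjusted p = 0.256). Pspn, or persephin, a further ligand of the family named after its values were seen, had means of 20.9 and 23.3, below 26.3.

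Of 49 adaptors and kinases downstream of Ret, 28 had a probe set, 20 were tested and 0 passed in limma, with 1 at an unadjusted p under 0.05. Their median difference was 0.0277, with 11 positive and 9 negative. Grb10, an adaptor that binds activated receptor kinases, was nearest, at 474 ± 107 in SNc and 736 ± 202 in VTA (-0.60, SE 0.18, limma adjusted p = 0.0909), and passed at -0.744 without SNc 5, SNc 7 and SNc 8 (limma adjusted p = 0.0459). Shc2, an adaptor that links receptors to Ras, lay at 74.2 ± 44.5 and 102 ± 28.6 (-0.49, SE 0.24, limma adjusted p = 0.344), and passed at -0.851 without SNc 5, SNc 7 and SNc 8 (limma adjusted p = 0.0299). The other Shc2 probe set, not tested, differed by -0.01.

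Among restraints on Ret and other receptor kinases, Spry1 was higher in VTA. Of 23 listed, 13 had a probe set and 9 were tested, of which 1 passed, and the list's median was -0.0601. Spry1, a Sprouty protein that dampens Ras-MAPK signalling and is known to restrain Ret in the developing kidney, lay at 46.4 ± 10.9 (SD, n = 8) in SNc and 78.6 ± 14.8 (SD, n = 7) in VTA. The difference was -0.60, or 1.52-fold (SE 0.14, limma adjusted p = 0.0366). The call was lost after quantile normalization (limma adjusted p = 0.0785), after median centring (0.0771), without VTA 5 and VTA 8 together (0.0912) and on leaving out SNc 2, 3, 6 or 7 or VTA 3, 4, 5, 6 or 8 (0.0532 to 0.082). Dusp5, a phosphatase that switches off MAPK, differed by -0.24 (limma adjusted p = 0.538).

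Genes of ligand maturation and heparan sulfate, which holds GDNF at the cell surface, numbered 15, of which 12 were tested and 0 passed in limma, with 3 at an unadjusted p under 0.05 and a median of 0.0637. Furin, a protease that cuts precursor proteins, had 149 ± 16.5 in SNc and 105 ± 27.2 in VTA (0.48, SE 0.15, limma adjusted p = 0.126), and its other probe set differed by -0.03. Sdc2, a heparan sulfate proteoglycan, had 71.1 ± 13.1 and 110 ± 30.4 (-0.50, SE 0.17, limma adjusted p = 0.139), and passed at -0.627 without VTA 8 (0.0324). Leaving out VTA 8 enlarged the difference, so this pass lends no support. Of 18 transcription factors tied to Ret, 6 were tested and 0 passed in limma, with 2 at an unadjusted p under 0.05, all 6 negative and a median of -0.246. Nr4a2, a nuclear receptor needed for dopamine neurons to form and to express Ret, had 334 ± 141 and 500 ± 119 (-0.65, SE 0.26, limma adjusted p = 0.228), and its other probe set differed by -0.52 (limma adjusted p = 0.0906). Egr1, an immediate early gene, differed by -0.40 (limma adjusted p = 0.297). Its other tested probe set differed by -0.41 (limma adjusted p = 0.236), and its untested ones by 0.27 and 0.23.

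For comparison with the other neurotrophic receptor family, 5 genes of the neurotrophins, Trk receptors and p75 were tested, and 1 passed. This was Ntf3, a neurotrophin, with means of 236 in SNc and 632 in VTA (-1.41, SE 0.20, limma adjusted p = 0.00073). Bdnf, a second neurotrophin, differed by -0.82 by its brightest probe set (SE 0.24, limma adjusted p = 0.0872), and passed without SNc 5 (0.0342) and without SNc 8 (0.0489). Its other tested probe sets differed by -0.58, -0.47 and -0.35 (limma adjusted p = 0.251, 0.12 and 0.291), and its untested ones by -0.29 to 0.15. The lists were not tested against each other.

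**Figure D5:**
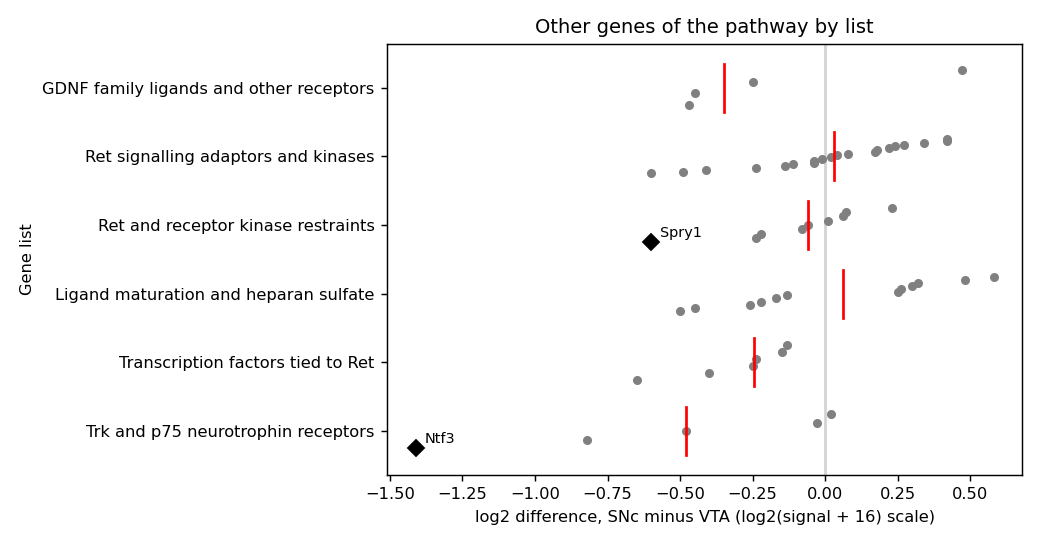
SNc minus VTA difference of each tested gene of 6 lists on the log2(signal + 16) scale, 1 point per gene by its brightest probe set, with a red line at the list median. Black diamonds are the 2 genes past the threshold, Spry1 at -0.60 and Ntf3 at -1.41.

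The genes whose signals went most closely with each of the 4 were named by the highest Pearson r of log2 signals over the 15 arrays, among 3220 genes for the receptors and 3221 for Gdnf. They are the highest of many, the arrays share 1 scaling, and no test was made of them. For Ret these were Ywhah (r = 0.763), Vps45 (r = 0.744) and Pou3f1 (r = 0.718). For Gfra1 they were Me1 (r = 0.871), Kti12 (r = 0.838) and Hadhb (r = 0.801). For Gfra2 they were Kcnmb1, a potassium channel subunit (r = 0.861), Scg2, a granin (r = 0.815), and Scn9a, a sodium channel (r = 0.806). Scg2 and Scn9a were themselves higher in VTA, each by a difference of -0.73 (limma adjusted p = 0.0321 and 0.028). After removal of region means, the highest were Taf9b (r = 0.892), Plec (r = 0.847) and Hmg20b (r = 0.799) for Ret. They were Me1 (r = 0.828), Sdc2 (r = 0.817) and Kti12 (r = 0.806) for Gfra1. They were Aldh1l1 (r = 0.748), Nsdhl (r = 0.718) and Kcnmb1 (r = 0.710) for Gfra2. For Gdnf, at its low signals, Gjb5 was highest on both scales (r = 0.844 and 0.845), followed by Acvrl1 and Atf3 on levels (r = 0.823 and 0.818) and Tpsb2 and Acvrl1 after removal of region means (r = 0.841 and 0.831).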

How the data were processed

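The authors deposited 1 table of linear signal intensity, 8799 probe sets on 15 arrays. The values had a 2% trimmed mean of 150.2 on each array, so by the values the authors had scaled them. Not given in the sources used here are scanner software, background correction, RNA amplification and detection calls. Leaving out 59 control probe sets left 8740, of which 7006 had 1 gene symbol in the platform annotation, 308 several and 1426 none.

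The deposited scaling was kept. Signals became log2(signal + 16), and probe sets whose mean lay in the lowest 40%, below about 26.3, were not tested. The remaining 5244 were fitted with limma 3.58.1 in R 4.3.3 (lmFit, eBayes, two-sided, no block). Ratios within arrays were tested by exact permutation over all 6435 splits of the arrays, and correlations with 100000 resamples, in Python 3.11.15 with scipy 1.17.1. The fit was tested on simulated data. For arrays, their number limits the precision.

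The 4 genes and all gene lists were chosen with earlier results of these data known. Named were all probe sets of the 4 genes, per list the genes past the threshold and the 2 with the smallest p, per gene the 3 genes with the highest correlation on each scale, and Th, Slc6a3, Ddc and Slc18a2. Genes named otherwise are said to be so. Alternatives covered scaling, offset, limit on dim probe sets, replicate block, array weights, variance model, test, threshold, probe set and arrays left out.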

Additional observations from a re-analysis of the deposited data

Results flagged for a closer look

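Of 28 sets of values examined, 1 region of 1 probe set or ratio each, 2 had an array far from the others, where chance gives about 1 in 20. Gdnf was 28.2 on SNc 1, far above the other 7 SNc arrays, where the lowest was 3.70. The log2 ratio of Ret to Gfra1 was 3.27 on VTA 8, far above the other VTA arrays, on which it was 2.55 or below.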

How the results depend on the processing

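Every probe set of Ret, Gfra1 and Gfra2 kept its direction in the 30 to 32 alternatives run for it. Alternatives of the limit on dim probe sets, variance model, test and threshold leave the difference as it is, so their direction was fixed in advance. Only U97143_at of Gfra2 changed its call. Its difference of -0.76 passed with an offset of 64 (-0.582), with 60% of probe sets left out (-0.76), with array weights (-0.832), with a trended and robust variance (-0.76), without SNc 5, SNc 7 and SNc 8 (-0.773) and at a threshold of 0.10, and without single arrays it ran from -0.86 to -0.687. Leaving out SNc 5, SNc 7 and SNc 8, the SNc arrays most like VTA, favours a call in advance. Relative to the mean of Th, Ddc, Slc6a3 and Slc18a2, an alternative chosen after seeing the data, the difference of U97143_at was -0.85 (exact permutation adjusted p = 0.114).

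The sources used here do not say whether replicate numbers pair the arrays. Deviations of same-numbered arrays correlated at 0.0439 to 0.254, positive in all 7 pairs and over 0.1 in 5, short of the bar of over 0.1 in every pair set for treating them as paired. Of the 7 SNc arrays, 3 correlated best with their own number among VTA arrays and 4 second best, a hint from the data and not the design. With the replicate block as a random effect U97143_at passed (-0.751, limma adjusted p = 0.0347), and with a fixed block it missed (-0.688, limma adjusted p = 0.0974). Sign flips within numbers kept the Gfra1 to Gfra2 (1.01) and Ret to Gfra2 (0.826) calls (exact permutation adjusted p = 0.0469 for both). Both lie at the smallest p-value that sign flips of 7 pairs allow. The ratios share Gfra2, and after adjustment neither would pass without the other. The count of all called probe sets was 99 with the fixed and 153 with the random block. With the fixed block Grb10 passed (-0.669, limma adjusted p = 0.0358) and Spry1 missed (-0.583, limma adjusted p = 0.0698).

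The count of 104 probe sets called was 60 with an offset of 1, 184 with array weights, 223 without SNc 5, SNc 7 and SNc 8, 40 and 208 at thresholds of 0.01 and 0.10, and 56 to 115 without single arrays, with 56 to 69 on leaving out SNc 2, 3 or 4 or VTA 1, 2, 3, 5 or 6. Of the 104, 42.3% were higher in SNc, and 64.4% after median centring. Gdnf lay below the limit for testing, so ratios to it carry no information on Gdnf and their values are given for completeness. The Gfra2 to Gdnf ratio, -0.70 with an adjusted p of 0.0513 by exact permutation, passed with an offset of 64 (-0.569) and after quantile normalization (-0.721), and ran from -0.824 to -0.554 without single arrays, passing without SNc 4, SNc 5 or VTA 6, and was -0.199 with the second probe sets (0.443). The Ret to Gfra1 ratio turned to 0.0186 without VTA 5 and VTA 8. With the third Ret probe set, AF042830_at, Ret to Gfra1 was -0.76 and passed, Ret to Gfra2 was 0.285 and missed, and Ret to Gdnf turned to -0.413. With the second probe set of each gene, Ret to Gdnf was 0.483 and Gfra1 to Gdnf 0.664, past the threshold. Some correlations, none of which passed, changed sign: Ret with Gfra2 was 0.0551 within VTA, Ret with Gdnf -0.0142 on levels and -0.434 within VTA, and Gfra1 with Gfra2 -0.1 on levels and -0.0362 within SNc. The cause was not tested in any of these cases. Without detection calls, signals near the lower limit cannot be told from background here.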
